A study of Mus musculus with 70 samples.

Results

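The genes described here are 8 matrix proteases, protease inhibitors and plasminogen activation genes: Mmp12, Mmp13, Mmp14, Mmp19, Timp1, Timp2, Plau and Plaur. They were taken by gene symbol, and each was found once among the 55487 named lines of each of 4 tables of RNA counts. The tables hold 70 libraries of CD45+ (immune) and CD45- (mostly tumor) cells sorted by flow cytometry from B16F10 melanomas, a mouse melanoma line grown on both flanks of young adult C57BL/6 mice of both sexes. Tumors on one side received sham treatment (control) or partial histotripsy, a mechanical, non-thermal ablation with focused ultrasound, and were taken 3 or 7 days later. An abscopal tumor is one left untreated in a mouse whose tumor on the opposite flank received histotripsy. No transgene or engineered allele was involved, and mice were not randomized. CD45+ cells gave 4 control, 6 histotripsy and 7 abscopal libraries on day 3 and 10, 3 and 4 on day 7. CD45- cells gave 4, 7 and 7 libraries on day 3 and 11, 3 and 4 on day 7. The labels give no sex, batch or mouse for a library, so histotripsy and abscopal libraries of 1 animal cannot be matched, and p-values measure the spread between these libraries only.

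The matrix around tumor cells is cut by matrix metalloproteinases, which are made as inactive precursors and are held in check by secreted tissue inhibitors, the TIMPs. Mmp12 encodes macrophage metalloelastase and Mmp13 encodes a collagenase. Mmp14 encodes a membrane-bound metalloproteinase that cuts collagen and activates the Mmp2 precursor together with Timp2, while Mmp19 encodes a secreted member that cuts basement membrane proteins. Plau encodes urokinase, which turns plasminogen into plasmin, and Plaur encodes the urokinase receptor, which holds urokinase at the cell surface. Plasmin degrades fibrin and can activate metalloproteinase precursors. In tumors these genes are used by macrophages, neutrophils and fibroblasts as well as by cancer cells.

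Levels are given as counts per 1000000 of the library's total (CPM). Each count is a read from the 3′ end of a transcript after molecular identifiers were collapsed, so counts do not scale with transcript length. Library totals ranged from 887798 to 3820705 counts. A gene was called changed at a Benjamini-Hochberg adjusted p below 0.05 in edgeR's quasi-likelihood test, adjusted over all genes tested in the table. In bulk libraries, fewer cells of a type and less RNA per cell cannot be told apart.

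The sort labels were checked against marker genes. Ptprc, which encodes CD45, was at 650.6 to 1252 CPM in CD45+ libraries and at 0 to 1.48 CPM in CD45- libraries. The sum of 7 melanoma markers was 23402 to 36892 CPM in CD45- libraries and 91.5 to 2278 CPM in CD45+ libraries. The CD45- libraries also held varying levels of 7 fibroblast markers, from 17.3 to 13364 CPM. A few libraries stood apart. Among CD45+ day 3 libraries, histotripsy replicate 3 had 26503 CPM of 6 neutrophil markers against 350.3 to 7671 CPM in the others, and abscopal replicates 1 and 4 had 1170 and 2278 CPM of melanoma markers against 91.5 to 307.7 CPM in the others. Among CD45- libraries, histotripsy replicates 1 and 3 on day 3 had 5812 and 13364 CPM of fibroblast markers and histotripsy replicate 3 on day 7 had 4038 CPM, while no other library passed 2589 CPM.

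The genes lie on 6 chromosomes in the GRCm38 build. Mmp13 (chr9:7272514-7283331) and Mmp12 (chr9:7344381-7369499) are neighbors on the same strand, 61049 bases apart. The others are Mmp14 (chr14:54431612-54445364), Plau (chr14:20836660-20843385), Mmp19 (chr10:128790910-128800824), Timp1 (chrX:20870166-20874735), Timp2 (chr11:118301069-118355740) and Plaur (chr7:24462484-24475968). Exons of Mmp12 overlap those of Mmp1b, and exons of Mmp19 overlap those of Gm47093 and Tmem198b, all on the opposite strand. Whether counting used the strand is not given in the sources used here, and the 3 overlapping genes had median levels of 0 to 0.654 CPM.

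Promoter windows are shown because Mmp12 and Mmp13 varied together across immune-cell libraries and because Plaur and Timp1 differed between groups. RefSeq windows on GRCm38.p6, from 250 bases before to 50 bases after a start site, were found for 6 of the 8 genes, and Mmp12 had a window for each of its listed starts, which made 7 windows. The AP-1 motif TGANTCA, searched on both strands, matched in 3 genes and in 7.81% of 32851 mouse promoters of the same length. The match lay 44 bases before the second Mmp12 start, 35 bases before the Mmp13 start and 69 bases before the Plaur start. The ETS core AGGAAG or its reverse complement CTTCCT was present in 35.4% of all promoters, in the Mmp13 and Plaur windows 2 times each and in the Timp1 window 3 times, where AP-1 had no match. Capitals mark the AP-1 match, all 4 windows are on the plus strand, and a match is a description of letters only.
Mmp12, second start, chr9:7347124-7347423: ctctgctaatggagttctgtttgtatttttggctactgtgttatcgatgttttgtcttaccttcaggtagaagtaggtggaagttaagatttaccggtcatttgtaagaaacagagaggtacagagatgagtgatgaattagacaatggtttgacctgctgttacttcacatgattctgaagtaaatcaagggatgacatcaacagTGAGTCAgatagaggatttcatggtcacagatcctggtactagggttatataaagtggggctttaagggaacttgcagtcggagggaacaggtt
Mmp13, chr9:7272264-7272563: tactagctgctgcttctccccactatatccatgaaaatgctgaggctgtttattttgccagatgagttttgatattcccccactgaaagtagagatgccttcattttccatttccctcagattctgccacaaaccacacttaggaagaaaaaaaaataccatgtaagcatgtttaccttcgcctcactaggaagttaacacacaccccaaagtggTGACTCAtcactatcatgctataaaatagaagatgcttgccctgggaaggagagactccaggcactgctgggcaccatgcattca
Plaur, chr7:24462233-24462532: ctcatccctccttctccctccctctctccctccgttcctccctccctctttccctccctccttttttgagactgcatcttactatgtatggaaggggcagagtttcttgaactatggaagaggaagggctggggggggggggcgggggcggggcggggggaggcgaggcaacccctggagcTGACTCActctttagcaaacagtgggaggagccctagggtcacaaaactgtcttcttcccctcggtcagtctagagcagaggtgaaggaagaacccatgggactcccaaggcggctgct
Timp1, chrX:20869916-20870215: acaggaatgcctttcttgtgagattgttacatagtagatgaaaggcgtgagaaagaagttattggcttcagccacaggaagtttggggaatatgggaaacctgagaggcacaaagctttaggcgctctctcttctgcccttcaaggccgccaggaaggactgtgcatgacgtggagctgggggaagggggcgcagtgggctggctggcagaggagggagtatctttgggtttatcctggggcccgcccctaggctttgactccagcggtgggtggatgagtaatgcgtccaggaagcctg

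The sorted fractions differed in the levels of the members. The urokinase genes Plaur and Plau and the secreted metalloproteinase genes Mmp12, Mmp13 and Mmp19 were higher in CD45+ cells on both days. The inhibitor genes Timp1 and Timp2 and the membrane-bound protease gene Mmp14 were higher in CD45- cells. Most members were found in both fractions: in day 3 immune cells, Mmp14 was at a median of 76.9 CPM, above Plau at 61.7 CPM. All 8 genes passed edgeR's test between fractions on day 3 and on day 7, where 83.7% and 82.8% of all genes tested were also called. Of the genes tested, 43.1% were higher and 40.6% lower in CD45+ cells on day 3, and 42.5% and 40.3% on day 7. Ranges of CD45+ and CD45- libraries did not overlap for 6 of the 8 genes on each day, against 36.7% and 40.2% of all genes tested, and overlapped for Mmp19 and Timp1.

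Mmp12 was at 26.7 to 198.9 CPM with a median of 48.8 CPM over the 17 CD45+ libraries of day 3. It had 5 counts in all over the 18 CD45- libraries of day 3, with 14 libraries at 0, and 10 counts on day 7. Abscopal replicate 4 held 2 of the 5 counts on day 3, and control replicate 7 held 4 of the 10 on day 7. The pooled level in CD45+ cells was 637 times that in CD45- cells on day 3 (95% counting interval 272 to 1963) and 511 times on day 7 (278 to 1067). Mmp13 was present in the same fraction at a median of 21.1 CPM on day 3 and 29.2 CPM on day 7, with 13 and 10 counts in all in CD45- cells. Its pooled ratio was 110 (64.1 to 207.5) on day 3 and 161 (87.1 to 336) on day 7. Of its CD45- counts, 7 of 13 on day 3 were in histotripsy replicate 2 and 4 of 10 on day 7 in abscopal replicate 2, so these ratios depend on single libraries. Mmp19 was the least abundant member in immune cells, at medians of 5.80 and 4.63 CPM, and its pooled ratio was 5.32 (3.82 to 7.55) on day 3 and 16.9 (9.96 to 30.8) on day 7. These intervals cover counting error only.

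Plaur was the most abundant member in immune cells by median, at 149.2 CPM on day 3 and 129.2 CPM on day 7. It was at 0.732 to 7.99 CPM in CD45- cells on day 3, and its log2 difference between fractions was 5.86 ± 0.19 (SE; adjusted p = 7.45e-26, edgeR) on day 3 and 5.49 ± 0.21 on day 7. Plau was at medians of 61.7 and 66.0 CPM in immune cells and 6.21 and 9.62 CPM in CD45- cells, a log2 difference of 3.31 ± 0.21 on day 3 and 3.04 on day 7. RNAs of receptor and enzyme were both higher in immune cells.

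Timp2 was the most abundant member in CD45- cells, at 295.3 to 449.1 CPM on day 3 and 317.1 to 476.5 CPM on day 7. In immune cells it was at medians of 31.9 and 48.3 CPM, and the log2 difference, CD45+ minus CD45-, was -3.10 ± 0.15 on day 3 and -2.72 on day 7. Mmp14 was at medians of 179.7 and 177.8 CPM in CD45- cells and 76.9 and 94.2 CPM in immune cells, a log2 difference of -1.05 ± 0.12 and -0.82. The ranges of Timp1 overlapped between fractions, as those of Mmp19 did. Timp1 was at 9.51 to 146.2 CPM in CD45- cells and 2.59 to 21.1 CPM in immune cells on day 3. Its log2 difference was -1.65 ± 0.33 on day 3 (adjusted p = 2.42e-05, edgeR) and -0.99 ± 0.26 on day 7, and on day 7 it was not called in control tumors alone (-0.40, adjusted p = 0.238) or histotripsy tumors alone (-0.93, adjusted p = 0.148).

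Ordered by median level, immune cells ran Plaur, Mmp14, Plau, Mmp12, Timp2, Mmp13, Timp1 and Mmp19 on day 3, and the ranges of each gene and the next in this order overlapped. On day 7, Mmp12 stood second at 97.3 CPM. CD45- cells ran Timp2, Mmp14, Timp1, Plau, Plaur and Mmp19 on both days, with Mmp12 and Mmp13 at medians of 0. In CD45- cells of day 7, the range of Timp2 lay above that of Mmp14 (156.5 to 255.6 CPM), which lay above that of Timp1 (9.42 to 86.5 CPM).

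**Figure D1:**
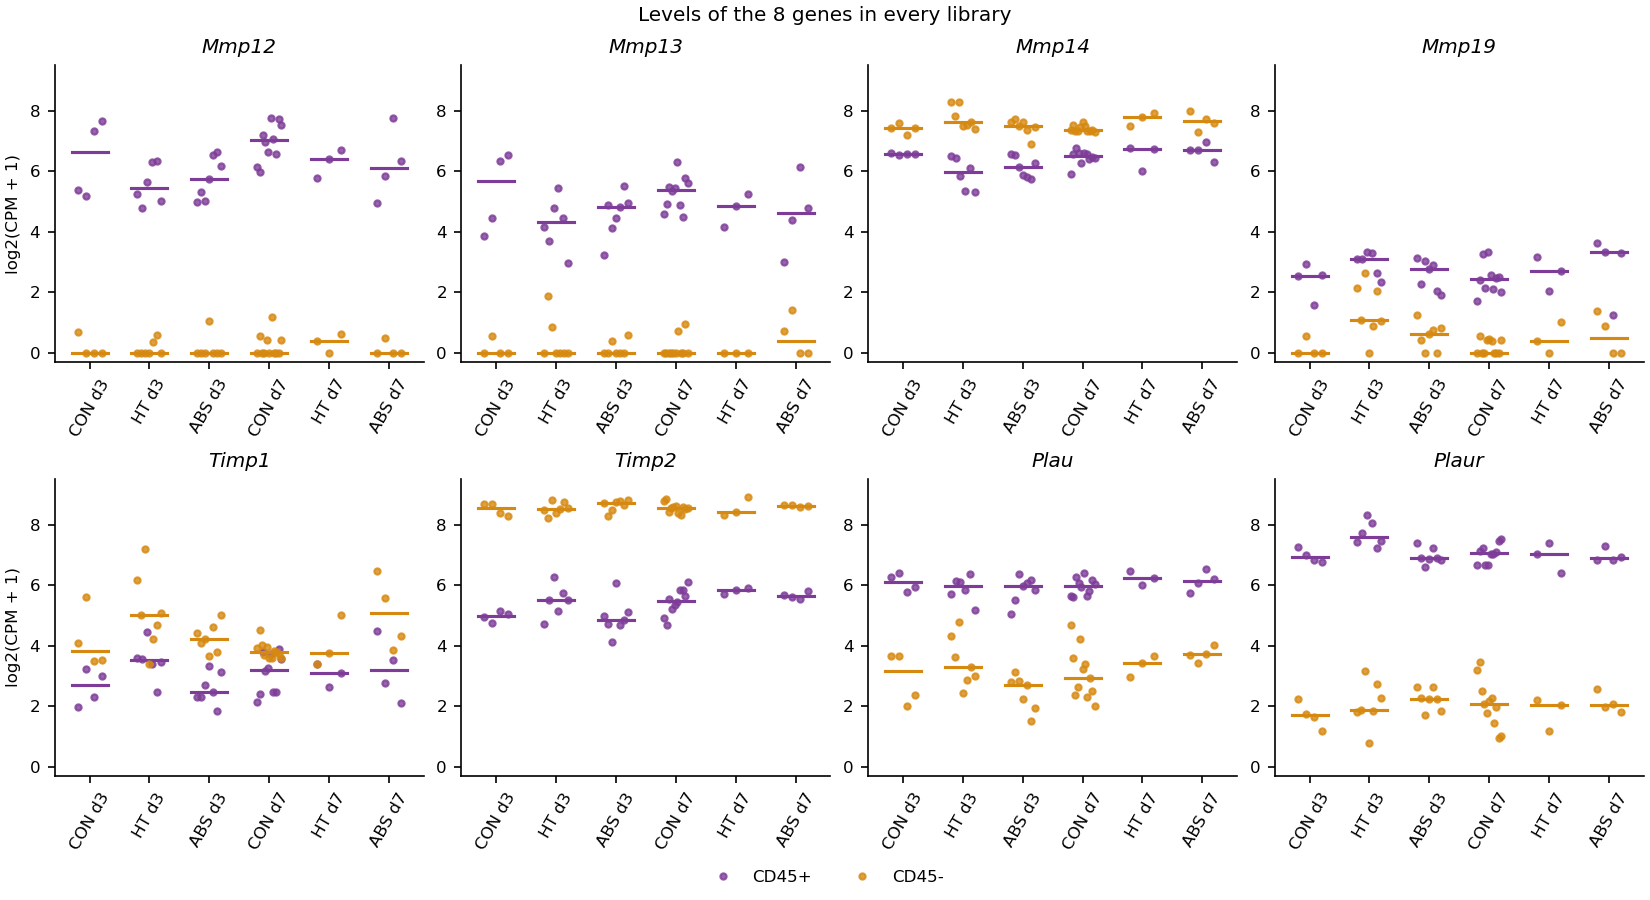
Levels of the 8 genes in every library, as log2(CPM + 1), by group (CON control, HT histotripsy, ABS abscopal, d3 and d7 days) and by fraction, with a line at each group's median. Mmp12, Mmp13, Plau and Plaur lie higher in CD45+ cells (purple), Timp2 and Mmp14 lie higher in CD45- cells (orange), and Timp1 and Mmp19 points of the fractions overlap.

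The comparison of histotripsy with control asks what the ablation itself did in the treated tumor. In immune cells on day 3, the urokinase receptor gene rose, and the other 7 genes did not pass the test. Plaur was at 153.0, 127.4, 113.8 and 108.6 CPM in the 4 control libraries. It was at 171.9, 207.6, 317.1, 265.4, 149.2 and 173.4 CPM in the 6 histotripsy libraries. All but 1 histotripsy library lay above every control library, with replicate 5 just under the highest control. The rise was 2.05-fold, a log2 fold change of 1.04 ± 0.24 (SE; adjusted p = 0.0127, edgeR). This was 1 of 8 genes called where 7.79% of all genes tested were called.

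The size of this rise depended on scaling. Scaling by library totals rather than by edgeR's TMM factors moved the median of all genes from -0.01 to -0.22 on the log2 scale, and Plaur was then higher by 0.77 and was still called (adjusted p = 0.0234, edgeR). That scaling also turned the balance of calls over all genes, from 637 higher of 800 to 414 higher of 1077. Without control replicate 3 or control replicate 4, Plaur had log2 fold changes of 0.98 and 0.96 and narrowly missed the threshold (adjusted p = 0.0546 and 0.0547, edgeR).

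Plaur was also higher in histotripsy than in abscopal tumors on day 3. The 7 abscopal libraries ran from 95.1 to 164.9 CPM with a median of 117.5 CPM, which overlapped the control range. The log2 difference, histotripsy minus abscopal, was 0.95 ± 0.20, a 1.93-fold difference (adjusted p = 0.00703, edgeR), and it remained called without each library in turn. Against abscopal tumors, 5.44% of genes were called, 500 of 558 of them higher, and with library totals 346 of 435 were higher. Abscopal tumors themselves had 0 genes called against control in edgeR (0% of 10264, with 796 genes at unadjusted p under 0.05 and 12 called by DESeq2 and 0 by limma-voom). None of the 8 genes was called there by the 3 tools, and Mmp13 alone had an unadjusted p under 0.05. Both comparisons with histotripsy share the same histotripsy libraries.

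Timp1 moved in the same direction in immune cells. It was at 2.89, 8.27, 3.92 and 6.94 CPM in the control libraries and at 4.54 to 21.1 CPM with a median of 10.5 CPM in the 6 histotripsy libraries, and at 2.59 to 8.96 CPM with a median of 4.47 CPM in the abscopal libraries. All histotripsy libraries but replicate 5 were above every control and abscopal library. These are 3 to 35 counts per library, so single values are coarse. Timp1 was 2.38-fold higher in histotripsy than in abscopal tumors (log2 1.25 ± 0.36, adjusted p = 0.0437, edgeR). Against control the log2 difference was 1.21 ± 0.43 and did not pass the test (adjusted p = 0.0843, edgeR). It passed with the replicate number as a block (1.43, adjusted p = 0.0313, edgeR) and without histotripsy replicate 5 (1.40, adjusted p = 0.0262, edgeR). Replicate 5 had the lowest Timp1 level among histotripsy libraries, and the replicate number marks no known animal or batch. The call against abscopal tumors was lost without abscopal replicates 1, 2, 3, 5 or 6 or histotripsy replicates 1, 2, 3 or 6, each left out alone, with adjusted p from 0.0512 to 0.208 in edgeR, and the lowest log2 difference, 0.86, was without histotripsy replicate 3. It was also lost in limma-voom (1.11, adjusted p = 0.0936), with library totals (1.07, adjusted p = 0.0715, edgeR) and with only the groups compared in the fit (1.26, adjusted p = 0.0674, edgeR).

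Neutrophil markers moved with these values. The sum of 6 neutrophil markers (6 of 6 detected) was 350.3 to 2672 CPM in day 3 control, 1272 to 26503 CPM in histotripsy and 768.3 to 2686 CPM in abscopal CD45+ libraries. Histotripsy replicate 3 had the highest neutrophil sum, the highest Plaur level and the highest Timp1 level, and replicate 5 had the lowest of all 3 among histotripsy libraries. Over the 17 day 3 libraries, Timp1 followed the neutrophil sum (Pearson's r = 0.824, permutation p = 8e-05, adjusted 0.00117; Spearman's rho = 0.757, permutation p = 0.00066, adjusted 0.00968; log2 scale). The value of r was 0.664 without the 2 libraries farthest from the median sum, 0.884 within the 6 histotripsy libraries (exact permutation p = 0.0361, adjusted 0.161; -0.15 without the 2 farthest, so it rests on those) and 0.883 within the 7 abscopal libraries (exact permutation p = 0.0107, adjusted 0.134). Plaur followed it less closely (r = 0.602, permutation p = 0.0166, adjusted 0.0457, and rho = 0.287, permutation p = 0.26, adjusted 0.382). Within histotripsy libraries r for Plaur was 0.848 (exact permutation p = 0.0361, adjusted 0.161), or 0.37 without the 2 farthest. Within abscopal libraries it was -0.397 (exact permutation p = 0.365, adjusted 0.634), and neither passed after adjustment. Without histotripsy replicate 3, Plaur was still called against control (log2 0.80, adjusted p = 0.0200, edgeR) and against abscopal tumors (0.71, adjusted p = 0.0221, edgeR). On day 7, r with the neutrophil sum over 17 libraries was -0.09 for Timp1 (permutation p = 0.72, adjusted 0.834), or 0.544 without the 2 farthest. For Plaur it was 0.429 on day 7 (permutation p = 0.0879, adjusted 0.172). The part of neutrophils in the Plaur and Timp1 differences was not tested.

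**Figure D2:**
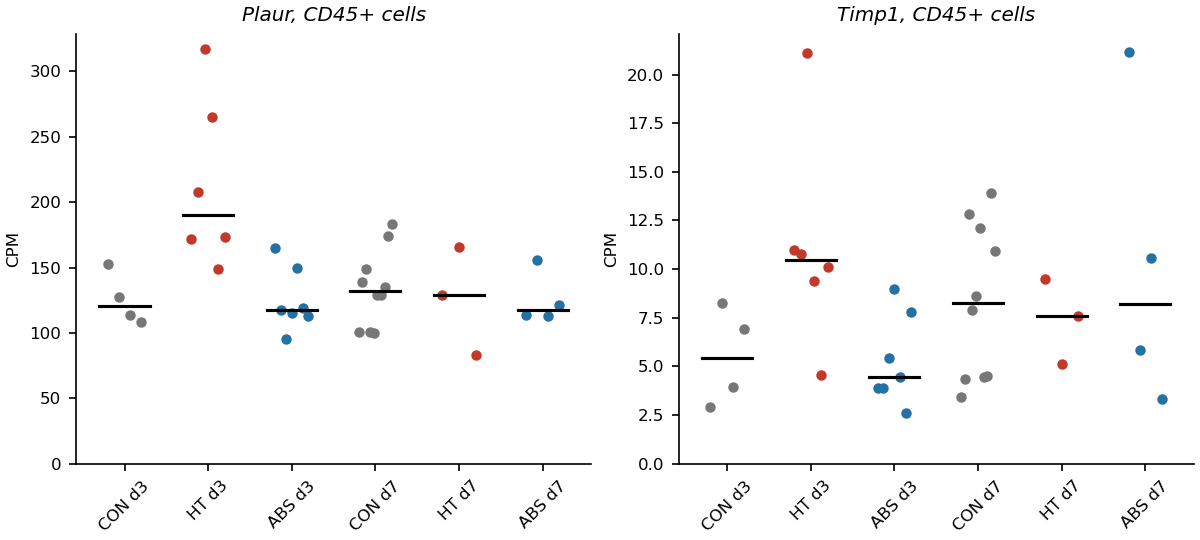
Plaur (left) and Timp1 (right) in CD45+ cells, in CPM, by group (CON control, HT histotripsy, ABS abscopal, d3 and d7 days); each point is a library and lines are medians. On day 3 the histotripsy medians are 190.5 CPM for Plaur and 10.5 CPM for Timp1, above those of control and abscopal tumors, while on day 7 the groups overlap.

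By day 7 the groups overlapped for both genes in immune cells. Plaur was at 100.3 to 183.3 CPM with a median of 132.2 CPM in 10 control libraries, at 129.2, 165.6 and 83.3 CPM in histotripsy libraries and at 113.4, 156.1, 113.2 and 121.6 CPM in abscopal libraries. The log2 difference, histotripsy minus control, was -0.11, with a 95% interval from -0.52 to 0.31. The change of the histotripsy effect from day 3 to day 7 was -1.12 ± 0.34 for Plaur and did not pass edgeR's test (adjusted p = 0.0620). It passed in DESeq2 (-1.14, adjusted p = 0.0307). For Timp1 this change was -1.34 ± 0.63 (adjusted p = 0.285, edgeR). Over all genes, 2.68% were called for a change of the effect between days in CD45+ cells, 29 of 301 of them higher on day 7, or 75 of 236 with library totals. None of the 8 genes was among them, with 2 at unadjusted p under 0.05, and limma-voom also called 0.

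Of all 3 comparisons of CD45+ day 7 libraries, each had 0% of 10817 genes called in edgeR, DESeq2 and limma-voom, with 291 to 806 genes at unadjusted p under 0.05 in edgeR. None of the 8 genes was at unadjusted p under 0.05 in any of them.

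Mmp12 and Mmp13 ran together in immune cells and spread widely within groups. On day 3, Mmp12 was at 40.4, 35.3, 158.3 and 198.9 CPM in the 4 control libraries, and Mmp13 was at 13.5, 21.0, 79.8 and 92.7 CPM in the same libraries. Control replicates 3 and 4 were thus high for both genes, and replicates 1 and 2 were low for both. In histotripsy libraries Mmp12 ran from 26.7 to 80.4 CPM with a median of 43.0 CPM, and Mmp13 from 6.75 to 42.6 CPM with a median of 18.8 CPM. Abscopal libraries lay in a like range, with medians of 52.2 CPM for Mmp12 and 27.4 CPM for Mmp13.

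The low control libraries overlapped the treated ones, and neither gene was called. For Mmp12 the log2 difference from control was -0.89 ± 0.43 in histotripsy (adjusted p = 0.210, edgeR) and -0.77 ± 0.41 in abscopal tumors (adjusted p = 0.667, edgeR). For Mmp13 it was -1.08 ± 0.47 (adjusted p = 0.168) and -0.94 ± 0.44 (adjusted p = 0.632), from the same test. On day 7, Mmp12 was at 61.7 to 214.8 CPM with a median of 128.7 CPM in control, at 54.4, 84.3 and 103.4 CPM in histotripsy and at 30.1, 56.8, 213.1 and 80.3 CPM in abscopal libraries. The histotripsy difference was -0.76 ± 0.43 on the log2 scale and was not called (adjusted p = 0.9999, edgeR).

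Across the 34 CD45+ libraries, after group means were taken out, Mmp13 was the gene most like Mmp12 among 10153 genes (Pearson's r of log2(CPM + 1) = 0.890). The next were Lhfpl2 (0.833) and Atp6v0d2 (0.823) for Mmp12, and Lgals3 (0.789) and Spp1 (0.785) for Mmp13. With the other 6 members, r ran from -0.43 (Mmp12 with Mmp19) to 0.393 (Mmp13 with Plau) in immune cells. The points share their libraries' depth, so these values describe likeness only. Marker sums gave no steady relation with these genes. On day 3, r with the neutrophil sum was -0.03 for Mmp12 (permutation p = 0.941, adjusted 0.941; rho = -0.06, permutation p = 0.824, adjusted 0.906) and 0.07 for Mmp13 (permutation p = 0.79, adjusted 0.889; rho = 0.105, permutation p = 0.687, adjusted 0.795; 17 libraries). On day 7 both followed that sum (r = 0.709, permutation p = 0.00174, adjusted 0.00957, and r = 0.693, permutation p = 0.00362, adjusted 0.0159; rho = 0.632 for both, permutation p = 0.008 and 0.0073, adjusted 0.0391 for both; 17 libraries). Without the 2 farthest libraries r fell to 0.447 and 0.325, and it was 0.542 and 0.396 within the 10 control libraries (permutation p = 0.107 and 0.258, adjusted 0.284 and 0.522), so the relation rests in part on those libraries. With the sum of 10 monocyte and macrophage markers, r was -0.03 for Mmp12 (permutation p = 0.828, adjusted 0.889; rho = -0.43, permutation p = 0.0879, adjusted 0.215) and 0.164 for Mmp13 (permutation p = 0.533, adjusted 0.711; rho = -0.35, permutation p = 0.169, adjusted 0.297) on day 3. On day 7 it was -0.13 (permutation p = 0.615, adjusted 0.752; rho = -0.01, permutation p = 0.955, adjusted 0.956) and -0.25 (permutation p = 0.338, adjusted 0.48; rho = -0.12, permutation p = 0.652, adjusted 0.776). Within the 10 day 7 control libraries it was 0.816 for Mmp12 (permutation p = 0.00544, adjusted 0.0898) and 0.59 for Mmp13 (permutation p = 0.0706, adjusted 0.232), and within the 7 day 3 abscopal libraries -0.65 (exact permutation p = 0.127, adjusted 0.311) and -0.73 (exact permutation p = 0.0349, adjusted 0.161).

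**Figure D3:**
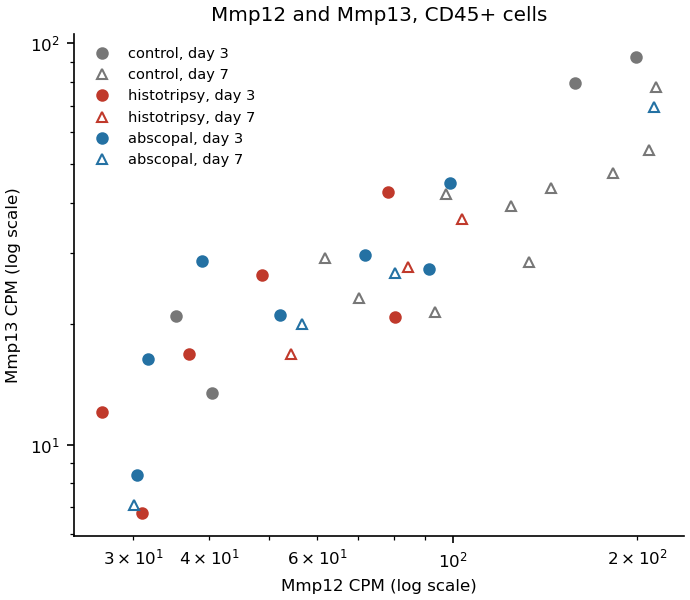
Mmp12 against Mmp13 in CD45+ cells, in CPM on log axes, each point a library, colored by group and shaped by day (filled circles day 3, open triangles day 7). The points run along 1 band, on which day 3 control replicates 3 and 4 lie well above replicates 1 and 2.

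Mmp14, the membrane-bound protease, had lower CPM after histotripsy in day 3 immune cells, but the difference did not pass the test. In CD45+ day 3 cells it was at 97.2, 91.5, 94.2 and 94.8 CPM in control libraries, at 38.5 to 90.2 CPM with a median of 62.1 CPM in histotripsy libraries and at 52.7 to 93.8 CPM with a median of 68.8 CPM in abscopal libraries. Every histotripsy library lay below every control library in CPM. This made Mmp14 the only one of the 8 genes whose day 3 immune-cell groups did not overlap between histotripsy and control, where 8.41% of all genes did not overlap, and none of the 8 was free of overlap between histotripsy and abscopal tumors, against 1.34% of all genes. The fitted difference from control was not called (adjusted p = 0.333, edgeR). CPM scales by library totals. With that scaling, the median of all genes between histotripsy and control was -0.22 on the log2 scale, against -0.01 with TMM factors.

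In CD45- cells the values of Mmp14 ran the other way. On day 3, Mmp14 was at 172.8, 191.1, 144.4 and 170.1 CPM in control and 166.1 to 312.9 CPM with a median of 197.3 CPM in histotripsy libraries, a log2 difference of 0.40 ± 0.19 that was not called (adjusted p = 0.4663, edgeR). On day 7 it was at 156.5 to 196.8 CPM with a median of 162.5 CPM in control, at 181.3, 220.9 and 243.0 CPM in histotripsy, and at 255.6, 157.0, 209.2 and 194.2 CPM in abscopal libraries. The day 7 histotripsy difference was 0.38 ± 0.11 and was not called (adjusted p = 0.401, edgeR). The histotripsy effect on day 3 differed between fractions by -0.75 ± 0.31, CD45+ minus CD45-, which did not pass the test (adjusted p = 0.213, edgeR) and passed when the replicate number was added as a block (-0.83, adjusted p = 0.0447). For this contrast 1.92% of 12392 genes were called, 176 of 238 of them higher, or 75 of 241 with library totals. None of the 8 genes was called, 3 were at unadjusted p under 0.05, and DESeq2 and limma-voom also called 0.

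Mmp19 had few counts. In immune cells on day 3 it was at 4.81, 6.62, 1.962 and 4.90 CPM in control, 4.05 to 9.04 CPM with a median of 7.60 CPM in histotripsy and 2.75 to 7.76 CPM in abscopal libraries, and the log2 difference of 0.83 ± 0.38 was not called (adjusted p = 0.187, edgeR). In CD45- cells on day 3 it had 1 count over 4 control libraries and up to 13 counts in 1 histotripsy library, and it did not pass the filter on low counts.

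Timp2, an inhibitor that also takes part in Mmp2 activation, had like levels across CD45- groups. Its group medians lay between 342.3 and 422.1 CPM, and the log2 differences from control were 0.01 to 0.15, none of them called. In immune cells on day 3 it was at 29.8, 25.9, 34.7 and 31.9 CPM in control, 25.3 to 75.4 CPM with a median of 44.5 CPM in histotripsy and 16.3 to 66.5 CPM with a median of 27.9 CPM in abscopal libraries. The log2 difference was 0.86 ± 0.33 from control (adjusted p = 0.115, edgeR) and 0.68 ± 0.28 from abscopal tumors (adjusted p = 0.173, edgeR), and neither was called. The highest abscopal value, 66.5 CPM, was in replicate 4, which also had the highest melanoma marker sum of CD45+ libraries, 2278 CPM. Without that library, Timp2 was called higher in histotripsy than in abscopal tumors (0.96, adjusted p = 0.0259, edgeR). In 12 of 13 fits with 1 library left out it was not called, and the difference fell as low as 0.39. Over the 17 day 3 libraries, Timp2 also followed the neutrophil sum (r = 0.594, permutation p = 0.0161, adjusted 0.0457; rho = 0.574, permutation p = 0.019, adjusted 0.0696), with r = 0.414 without the 2 farthest libraries, 0.621 within histotripsy (exact permutation p = 0.178, adjusted 0.379) and 0.362 within abscopal libraries (exact permutation p = 0.426, adjusted 0.672). The parts of melanoma RNA and of neutrophils in these values were not tested.

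Plau did not follow its receptor gene. In immune cells its group medians lay between 61.7 and 74.8 CPM over all 6 groups, and no difference was called. Plau RNA was at 76.0, 82.7, 53.6 and 60.4 CPM in day 3 control and 35.1 to 82.4 CPM in day 3 histotripsy libraries, which is the comparison in which Plaur rose. Between Plau and Plaur, r was -0.03 over the 34 CD45+ libraries after group means were taken out.

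**Figure D4:**
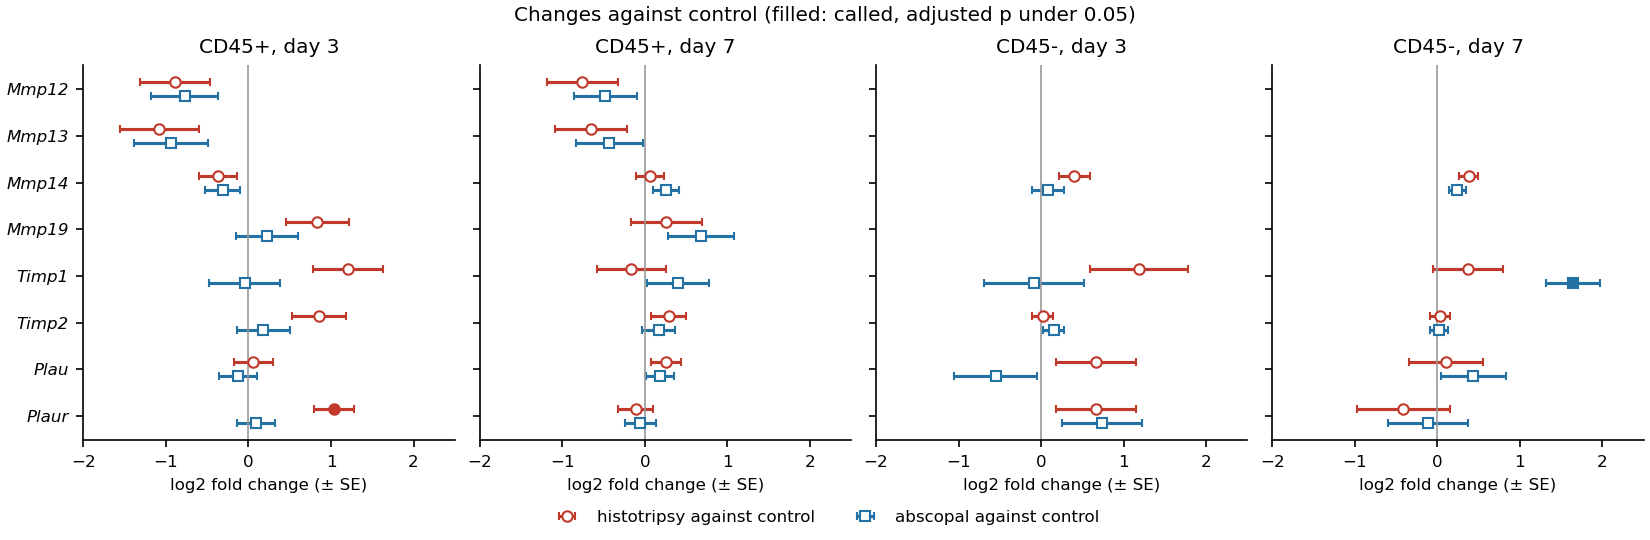
Log2 fold changes of the 8 genes against control (± SE, edgeR) for histotripsy (red circles) and abscopal tumors (blue squares) in the 4 tables; filled symbols passed an adjusted p of 0.05, and genes without symbols did not pass the filter on low counts. The filled symbols are Plaur in CD45+ day 3 histotripsy tumors at 1.04 and Timp1 in CD45- day 7 abscopal tumors at 1.64.

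Timp1, the secreted metalloproteinase inhibitor, ranged widely in CD45- cells. On day 3 it was at 16.0, 47.4, 10.3 and 10.4 CPM in control libraries and at 71.2, 31.5, 146.2, 9.51, 17.5, 24.9 and 32.9 CPM in histotripsy libraries. Abscopal libraries ran from 11.7 to 31.1 CPM with a median of 17.7 CPM. Histotripsy replicates 1 and 3 stood above every other library, and the groups overlapped. The log2 difference was 1.19 ± 0.59 from control (adjusted p = 0.491, edgeR) and 1.28 ± 0.48 from abscopal tumors (adjusted p = 0.228, edgeR). With 1 library left out these ran from 0.53 to 2.02 and from 0.61 to 1.45, and Timp1 was not called in any such fit. Plau, at 4.39 to 26.4 CPM with a median of 8.83 CPM in histotripsy and 1.85 to 7.74 CPM with a median of 5.57 CPM in abscopal libraries, differed by 1.22 ± 0.41 and was not called either (adjusted p = 0.175, edgeR).

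Of CD45- day 3 genes, 0.0916% were called between histotripsy and control, 0.147% between histotripsy and abscopal tumors and 0% between abscopal tumors and control, where 567 genes were at unadjusted p under 0.05, DESeq2 called 13 and limma-voom 0. Of the 8 genes, 5 passed the filter in CD45- cells, all but Mmp12, Mmp13 and Mmp19, and none was called in these comparisons by edgeR, DESeq2 or limma-voom. Unadjusted p under 0.05 was found for 1 gene against control and for 2 genes against abscopal tumors.

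On day 7, Timp1 rose in CD45- cells of abscopal tumors. It was at 11.2 to 22.1 CPM with a median of 12.9 CPM in 11 control libraries, at 86.5, 47.0, 13.5 and 19.0 CPM in 4 abscopal libraries and at 9.42, 12.6 and 31.6 CPM in 3 histotripsy libraries. Abscopal replicates 1 and 2 stood above all controls, and replicates 3 and 4 lay inside the control range. The rise against control was 3.12-fold (log2 1.64 ± 0.33, adjusted p = 0.0282, edgeR), where 0.291% of genes were called. The log2 difference between histotripsy and abscopal tumors, -1.27 ± 0.46, was not called (adjusted p = 0.608, edgeR).

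The abscopal call rested on a small number of libraries. Without abscopal replicate 1 the log2 fold change was 0.95 (adjusted p = 0.709, edgeR), and without replicate 2 it was 1.59 (adjusted p = 0.116, edgeR). Leaving out control replicates 3, 4, 6, 7, 8, 9, 10 or 11, each alone, gave 1.61 to 1.66 with adjusted p from 0.0529 to 0.0634. DESeq2 (adjusted p = 0.0645), limma-voom (adjusted p = 0.292) and a fit with the replicate number as a block (adjusted p = 0.608, edgeR) did not call it. CD45- day 7 histotripsy tumors had 0% of 10996 genes called against control and against abscopal tumors by the 3 tools, with 669 and 741 genes at unadjusted p under 0.05, and 1 of the 8 genes in each.

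Fibroblast markers moved with Timp1 in CD45- cells. The sum of 7 fibroblast markers was 17.5 to 1050 CPM in day 3 control, 57.4 to 13364 CPM in histotripsy and 145.3 to 819.5 CPM in abscopal libraries, and on day 7 it was 17.3 to 697.9, 86.9 to 4038 and 72.9 to 2497 CPM. The abscopal day 7 replicates with most Timp1, 1 and 2, had 2497 and 1377 CPM, and the day 3 control library with most Timp1, replicate 2, had 1050 CPM. Over the 18 day 3 libraries r was 0.906 (permutation p = 2e-05, the smallest the resamples can give, adjusted 0.00044) and rho was 0.948 (permutation p = 2e-05, adjusted 0.00088). The value of r was 0.904 without the 2 farthest libraries, 0.926 within histotripsy (exact permutation p = 0.00238, adjusted 0.0524) and 0.860 within abscopal libraries (exact permutation p = 0.0127, adjusted 0.134). Over the 18 day 7 libraries r was 0.791 (permutation p = 0.00034, adjusted 0.00317) and rho 0.664 (permutation p = 0.00348, adjusted 0.0244), with r = 0.694 without the 2 farthest and 0.616 within the 11 control libraries (permutation p = 0.0737, adjusted 0.232), where it was 0.235 without the 2 farthest.

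Plau, Mmp19 and Mmp14 followed the same markers on day 3. For Plau r was 0.750 (permutation p = 0.00036, adjusted 0.00317) and rho 0.717 (permutation p = 0.00126, adjusted 0.012), with r = 0.688 without the 2 farthest libraries, 0.925 within the 7 histotripsy libraries (exact permutation p = 0.000794, adjusted 0.0262) and 0.362 within the 7 abscopal libraries (exact permutation p = 0.427, adjusted 0.672). For Mmp19, at 0 to 13 counts, r was 0.869 (permutation p = 2e-05, adjusted 0.00044) and rho 0.823 (permutation p = 0.00012, adjusted 0.00264), with r = 0.842 without the 2 farthest libraries and 0.944 and 0.639 within histotripsy and abscopal libraries. For Mmp14 r was 0.7099 (permutation p = 0.00118, adjusted 0.00742) and rho 0.589 (permutation p = 0.0116, adjusted 0.0511), with r = 0.666 without the 2 farthest libraries, 0.781 within histotripsy (exact permutation p = 0.0202, adjusted 0.148) and 0.404 within abscopal libraries (exact permutation p = 0.409, adjusted 0.672). For Plaur on day 3 r was 0.626 (permutation p = 0.00574, adjusted 0.021), or 0.366 without the 2 farthest libraries. On day 7 r for Mmp14 was 0.487 (permutation p = 0.0514, adjusted 0.119) and -0.03 without the 2 farthest libraries. Other day 7 values were 0.703 for Mmp19 (permutation p = 0.00236, adjusted 0.0115), 0.583 for Plau (permutation p = 0.0118, adjusted 0.0397) and 0.585 for Timp2 (permutation p = 0.0126, adjusted 0.0397). Without the 2 farthest they were 0.415, 0.617 and 0.421. Timp2 on day 3 (0.411) and Plaur on day 7 (0.449) did not pass after adjustment. In total, 44 relations over whole tables and 66 within groups were computed, and p-values were adjusted within each family. The part of fibroblasts in the Timp1, Plau and Mmp14 differences was not tested.

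**Figure D5:**
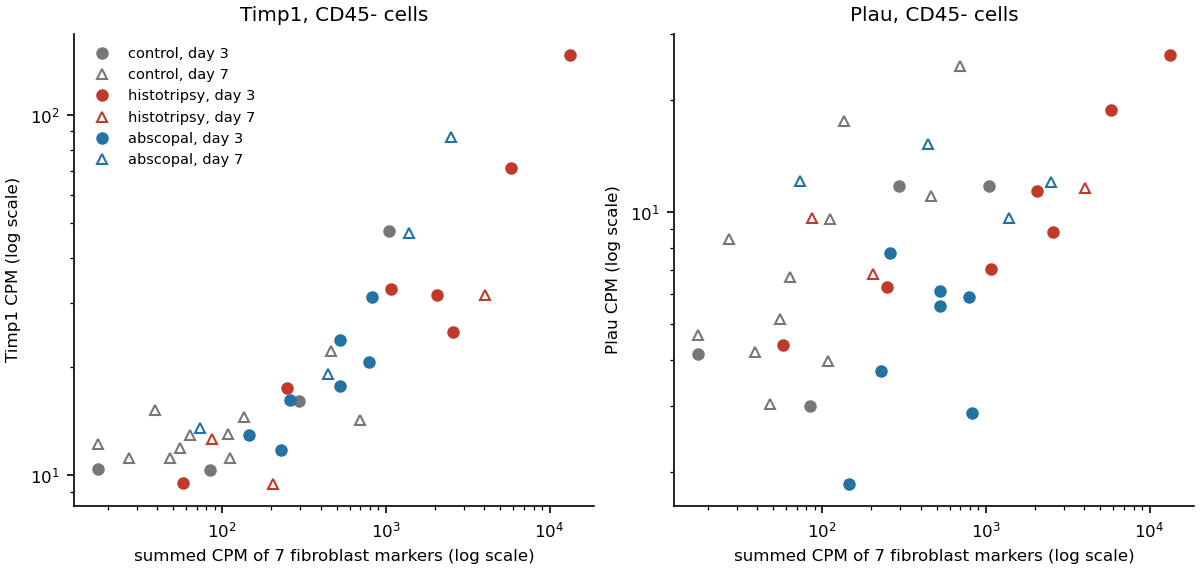
Timp1 (left) and Plau (right) in CD45- cells against the summed CPM of 7 fibroblast markers, both on log axes, each point a library (filled circles day 3, open triangles day 7; grey control, red histotripsy, blue abscopal). Timp1 reaches 146.2 CPM in the histotripsy library with the highest sum, while Plau scatters more.

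The genes most like Timp1 over the 36 CD45- libraries, after group means were taken out, were Cxcl12 (r = 0.924), Serping1 (0.917) and Serpina3n (0.912) among 10730 genes. Those most like Timp2 were Ypel3 (0.764), B4galt1 (0.741) and Shisa5 (0.724), and those most like Mmp14 were Sh3d19 (0.777), Marcks (0.773) and Tmsb4x (0.772). In the 34 CD45+ libraries, those most like Plaur were Tlr2 (0.747), Emilin2 (0.698) and Flot1 (0.688). Those most like Plau were Cdr2 (0.71), Clic4 (0.694) and Gm6377 (0.648), and those most like Mmp19 were Crat (0.673), Plcb2 (0.667) and Sympk (0.645). These are descriptions over libraries.

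Differences between fractions and days for the rest of the set were few. The histotripsy effect differed between fractions on day 7 for 0% of 12863 genes in edgeR (623 at unadjusted p under 0.05, 8 called by DESeq2 and 0 by limma-voom) and between days in CD45- cells for 0% of 11548 genes (695 at unadjusted p under 0.05, 13 called by DESeq2 and 0 by limma-voom). None of the 8 genes was at unadjusted p under 0.05 in either contrast, and none was called by DESeq2 or limma-voom.

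Other genes of the same systems were counted from 8 lists. In CD45+ day 3 histotripsy against control, 4 listed genes were called, all higher. Of all genes tested there, 7.79% were called, 637 of 800 of them higher. Mmp9, a gelatinase that neutrophils store in granules, was 1 of 3 tested members of a list of 19 other metalloproteinases (log2 3.16 ± 0.57, adjusted p = 0.00251, edgeR). Slpi, a secreted inhibitor of neutrophil elastase, was 1 of 8 tested of 13 cystatins and other inhibitors (1.82 ± 0.38, adjusted p = 0.00610, edgeR). Furin, a proprotein convertase that activates Mmp14, was 1 of 7 tested of 12 activators and inducers (0.67 ± 0.15, adjusted p = 0.00845, edgeR). Furin was not called with library totals (0.44, adjusted p = 0.0517, edgeR) or with no filter on low counts (0.60, adjusted p = 0.0631, edgeR). Serpinb8, an intracellular serine protease inhibitor, was 1 of 8 tested of 11 plasminogen activation genes (1.38 ± 0.32, adjusted p = 0.0127, edgeR), and was not called without control replicate 3 (1.29, adjusted p = 0.0541, edgeR).

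Median log2 fold changes in that comparison were 1.06 for the metalloproteinases, 0.15 for plasminogen activation, 0.25 for activators and inducers, and -0.40 for cystatins and other inhibitors, beside -0.01 over all genes tested. The remaining lists had no call there: 8 tested ADAM and ADAMTS proteases had a median of -0.11, 9 tested cathepsins 0.04 and 7 tested matrix substrates 0.34, and none of the 4 other metalloproteinase inhibitors passed the filter. Against abscopal tumors, Mmp9 (3.24), Slpi (1.22) and Furin (0.53) were called again, among 7 listed genes, all higher. Of all genes tested, 5.44% were called against abscopal tumors, 500 of 558 of them higher. The Slpi call against abscopal tumors was lost without histotripsy replicate 3 (0.69, adjusted p = 0.0852, edgeR) and in limma-voom (0.96, adjusted p = 0.0712), and the Furin call with library totals (0.40, adjusted p = 0.0696, edgeR) and with no filter on low counts (0.50, adjusted p = 0.0837, edgeR). The histotripsy effect was lower on day 7 than on day 3 by 3.73 ± 0.81 for Mmp9 (log2 -3.73, adjusted p = 0.0102, edgeR) and by 1.97 ± 0.52 for Slpi (log2 -1.97, adjusted p = 0.0304, edgeR). The Mmp9 call was lost without day 7 histotripsy replicate 1 (-3.29, adjusted p = 0.0790, edgeR), and the Slpi call was lost without day 3 control replicates 1 or 2, day 3 histotripsy replicate 3, or day 7 histotripsy replicates 1 or 3, each alone (-1.88 to -1.46, adjusted p from 0.0601 to 0.154), in limma-voom (-1.72, adjusted p = 0.0574) and with the replicate number as a block (-1.75, adjusted p = 0.0926, edgeR).

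In histotripsy against control, no listed gene was called in CD45+ day 7, CD45- day 3 or CD45- day 7 libraries. In CD45- day 3 libraries, 14 of 14 matrix substrates were tested and their log2 fold changes had a median of 1.02, the 9 tested plasminogen activation genes also had 1.02, and all genes together had 0.01. In CD45- day 7 abscopal tumors against control, 0.291% of all genes tested were called, 29 of 32 of them higher. In that comparison, in which Timp1 rose, 4 of 14 matrix substrates and 1 of 2 tested metalloproteinases were called, all higher. They were named after their values were seen: Spp1 (2.79 ± 0.37), Tnc (3.64 ± 0.65), Col4a1 (1.38 ± 0.29), Vcan (3.23 ± 0.70) and Mmp3 (4.26 ± 0.83), with adjusted p from 0.00162 to 0.0431 in edgeR. Leaving out 1 library at a time, Spp1 was called in 15 of 15 fits, Tnc in 9 of 15, Col4a1 and Vcan in 4 of 15 each and Mmp3 in 6 of the 13 in which it passed the filter. Mmp3 did not pass the filter on low counts without abscopal replicate 1 or without abscopal replicate 2, so its test depends on those libraries. Without abscopal replicate 1 the log2 fold changes were 0.47 for Col4a1, 2.65 for Tnc and 2.37 for Vcan (adjusted p = 0.709 for each, edgeR), and without abscopal replicate 2 they were 1.502 for Col4a1, 3.606 for Tnc and 3.133 for Vcan (adjusted p from 0.0742 to 0.139). The other losses, at adjusted p from 0.0503 to 0.0914, came without control replicates 3, 4, 8 or 11 for Tnc, without 3, 4, 6, 8, 9, 10 or 11 for Mmp3, and without any of 3 to 11 for Col4a1 and Vcan, each alone. None of the 5 was called with the replicate number as a block, and Spp1 was the only one of them called by DESeq2 and limma-voom. The part of fibroblasts in these differences was not tested.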

How the data were processed

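RNA of sorted CD45+ and CD45- cells was sequenced from transcript 3′ ends (QuantSeq). Per the labels and methods, the authors trimmed reads with Trim Galore 0.5.0, aligned them with STAR 2.6.0 to GRCm38, collapsed molecular identifiers and deposited raw counts per gene from featureCounts. The strand setting is not given in the sources used here. An unnamed line in each CD45+ table that equals the column totals was left out.

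From the counts, edgeR 4.0.16 (R 4.3.3) was fitted to each table with all 3 groups sharing 1 estimate of the spread, with TMM factors and filterByExpr (minimum count 10, minimum total 15). Quasi-likelihood p-values were Benjamini-Hochberg adjusted over all genes tested, at a threshold of 0.05. Fitted fold changes use TMM factors and so differ from ratios of CPM. Fractions, and differences of the histotripsy effect between fractions or days, were tested in joint fits. Relations with marker sums used log2(CPM + 1) and permutation tests, exact below 10 libraries and with 100000 resamples otherwise. The fits were tested on simulated data. Alternatives were DESeq2 1.42.0, limma-voom (limma 3.58.1), library totals, no filter, a replicate block, the most abundant gene left out, only the groups compared, and each library left out. In a further alternative, libraries below 1000000 counts were left out where any existed, while the main fits kept them.

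Genes were named by rule: the 8 members, genes of the 8 lists called in histotripsy against control, and the 3 genes most like each member. Outside it, listed genes called in CD45- day 7 abscopal against control were named after their values were seen. The members and lists were chosen with earlier results of these data known. Same-numbered libraries were not treated as pairs. No library was a duplicate: over 208 pairs the smallest chi-square per degree of freedom was 1.99. Depth was 887798 to 3820705 counts (median 2105674), and intervals of pooled ratios cover counting error only, while the interval of the Plaur difference on day 7 comes from the fitted standard error between libraries.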

Additional observations from a re-analysis of the deposited data

Results flagged for a closer look

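Among 60 groups of 4 to 10 libraries of the 8 genes, 2 held a library farther from the others than Dixon's limit at 95%, or 3.33%, and chance marks about 1 in 20. Timp1 in CD45- day 3 control replicate 2 was at 47.43 CPM, with the nearest control library at 16.04 CPM and a fibroblast marker sum of 1050 CPM there. Timp2 in CD45+ day 3 abscopal replicate 4 was at 66.45 CPM, with the nearest abscopal library at 33.89 CPM and a melanoma marker sum of 2278 CPM there. The part of these cells was not tested.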

How the results depend on the processing

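No result reversed. Of the 8 genes, the count called in CD45+ day 3 histotripsy against control was 1, and became 4 with no filter on low counts, 2 with the replicate block and 0 to 2 with each library left out. Against abscopal tumors it was 2, and became 3 with no filter, 1 with limma-voom, library totals or only the groups compared, each time losing Timp1, and 1 to 3 with each library left out. With no filter, 2 were called in CD45+ day 3 abscopal against control, 1 in CD45+ day 7 histotripsy against control and 2 in CD45- day 3 histotripsy against abscopal, where the main count was 0. In CD45- day 7 abscopal against control the count of 1 became 0 with DESeq2, limma-voom and the replicate block, and 0 to 1 with each library left out. For the difference of the histotripsy effect between fractions on day 3 it was 0 and became 1 with the block, and between days in CD45+ cells it was 0 and became 1 with DESeq2 or no filter, and 0 to 1 with each library left out. The cause was not tested.

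The replicate number was added as a block although same-numbered libraries did not always deviate together. Of 18 group pairs, 1 had every correlation above 0.1, and 31 of 83 same-numbered pairs correlated best with their own number. By group pair this ran from 0 of 3 to 3 of 4, the latter between the fractions of day 7 abscopal tumors. Over all genes the block took CD45+ day 3 histotripsy against control from 800 to 1256 calls, CD45- day 7 abscopal against control from 32 to 0, and the CD45+ difference between days from 301 to 25. It also added Timp1 in CD45+ day 3 histotripsy against control.

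Other counts over all genes also moved. CD45+ day 3 histotripsy against control had 451 calls with only the groups compared and 1244 with no filter. CD45- day 3 histotripsy against control had 10, and 49 with DESeq2, 1 with limma-voom and 312 with no filter. Few counts limit Mmp19 and Timp1 in CD45+ cells and Mmp12, Mmp13 and Mmp19 in CD45- cells.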
